A study of Homo sapiens with 36 samples.

Results

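The LGALS3 windows are stretches of RNA of at most 100 nt in which the authors called more reads after immunoprecipitation (IP) of LGALS3 than in the matched input. Every window of the LGALS3 list was taken, 1002 of the 788098 windows listed for the 9 proteins of the series, and each summary was also made for the 961 windows outside the genes MBNL2, RNPS1 and LGALS3. The method was enhanced crosslinking and immunoprecipitation (eCLIP), in which RNA is crosslinked to protein, trimmed, recovered with an antibody and sequenced. The cells were HEK293T, a human embryonic kidney line, with no added treatment. LGALS3 IP had 2 libraries and LGALS3 input had 2 libraries. The antibody recognised either the protein or a V5 tag, and which of these served for LGALS3 is not given in the sources used here. Whether the replicates came from different cultures is not in the labels, and their spread may be technical. Because the tables hold only enriched windows, the cell line could not be checked against marker genes.

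Galectin-3, the product of LGALS3, is a lectin that binds galactose-containing sugars. It is found outside the cell, in the cytosol and in the nucleus, and it is known for roles in adhesion, in the handling of damaged membranes and, in nuclear extracts, in splicing. It has no classical RNA-binding domain, and the other 8 proteins of the series are CPSF5, CPSF6, EIF4B, GRB2, MBNL2, RBM10, RBM22 and RNPS1.

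The windows bear on transcript starts in a small number of genes, and 35 RefSeq transcript starts had their first 30 bases inside a listed 5' UTR window. Of these, 7 are shown as RefSeq gives them (GRCh38.p14), 5' to 3', with the longest run of pyrimidines in capitals. RPL4 and RPL12 encode ribosomal proteins, RACK1 a scaffold on the small ribosomal subunit, H2BC18 a histone, and SPTBN1, AMOT and IQGAP1 cytoskeletal or junctional proteins with many windows.
RPL4, chr15:66504826-66504855, minus strand: aagcaCTTCCTTTTCCTgtggcagcagccg
RPL12, chr9:127451377-127451406, minus strand: CCTCTCggctttcggctcggaggaggccaa
RACK1, chr5:181243877-181243906, minus strand: CTCTCTTTCactgcaaggcggcggcaggag
H2BC18, chr1:149812341-149812370, minus strand: agttcggattacttctttaagTCTCTTTTC
SPTBN1, chr2:54456327-54456356, plus strand: agtccctccctcggccgCCTCTCCTCCCgg
AMOT, chrX:112840802-112840831, minus strand: aCCTCCCatcctttgcccaggagctgcctt
IQGAP1, chr15:90388242-90388271, plus strand: gaCCCCggcaagcccgcgcacttggcagga

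Of the 35 starts, 13 held a run of at least 7 pyrimidines (37.1%), against 16.4% of the 35116 starts in the RefSeq table. The median longest run was 6 bases in the 35 starts and 4 bases in the table. RPL4 and RACK1 had long runs at or near the first base, IQGAP1 had only a short one, and 15 of the 35 starts belonged to histone genes. Most of the 13 starts with a long run were histone starts (H2AC19, H2BC11, H2BC12, H2BC17, H2BC18, H3C2, H4C11 and H4C12). The rest were those of RPL4, RPL10A, RPL34, RACK1 and SPTBN1. H4C11 and H4C12 have the same letters, so the 13 are not independent. A run of C and T is a description of these letters and not a binding site.

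One more sequence lies under windows that the results return to. EEF1A1 encodes the elongation factor that brings aminoacyl-tRNA to the ribosome, and 3 of its windows lie upstream of its RefSeq start. The 250 bases before that start (GRCh38.p14, chr6:73521033-73521282, minus strand) are given with the letters TATATAA in capitals, which were found 30 nt before the start. These letters occur, on either strand, in the 250 bases upstream of 2.42% of the 35116 RefSeq entries.
EEF1A1 upstream: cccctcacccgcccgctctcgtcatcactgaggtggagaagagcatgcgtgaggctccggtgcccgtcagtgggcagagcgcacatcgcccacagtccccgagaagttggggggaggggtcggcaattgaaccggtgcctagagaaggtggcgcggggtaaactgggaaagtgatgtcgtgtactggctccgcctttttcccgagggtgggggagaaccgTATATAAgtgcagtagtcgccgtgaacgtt

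The list was short and shallow. It named 369 genes or gene groups, or 386 single symbols, which is 3.44% of the 11208 genes listed for any of the 9 proteins. Among the 7336 genes listed for at least 5 of the other 8 proteins, 345 had an LGALS3 window (4.70%). A total of 187076 IP reads and 65036 input reads fell in the windows, both summed by the authors over 2 libraries. Since no count per library was available, the comparisons are descriptions with no test across samples. The whole depth of each library is unknown.

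A typical window rested on few reads. The IP sum was 14 at the lowest, 35 at the median and 24476 at the highest, against an input sum of 0, 5 and 14513. In 444 windows fewer than 5 input reads were counted, and in 40 windows none. The authors' enrichment, a log2 odds ratio of IP over input given as the lower and the higher value over replicates, had a median of 2.39 for the lower and 3.24 for the higher value. The gap between these had a median of 0.64 and was above 1 in 341 windows. The authors' larger q-value reached 0.199, and it was at most 0.05 in 276 of the 1002 windows.

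**Figure D1:**
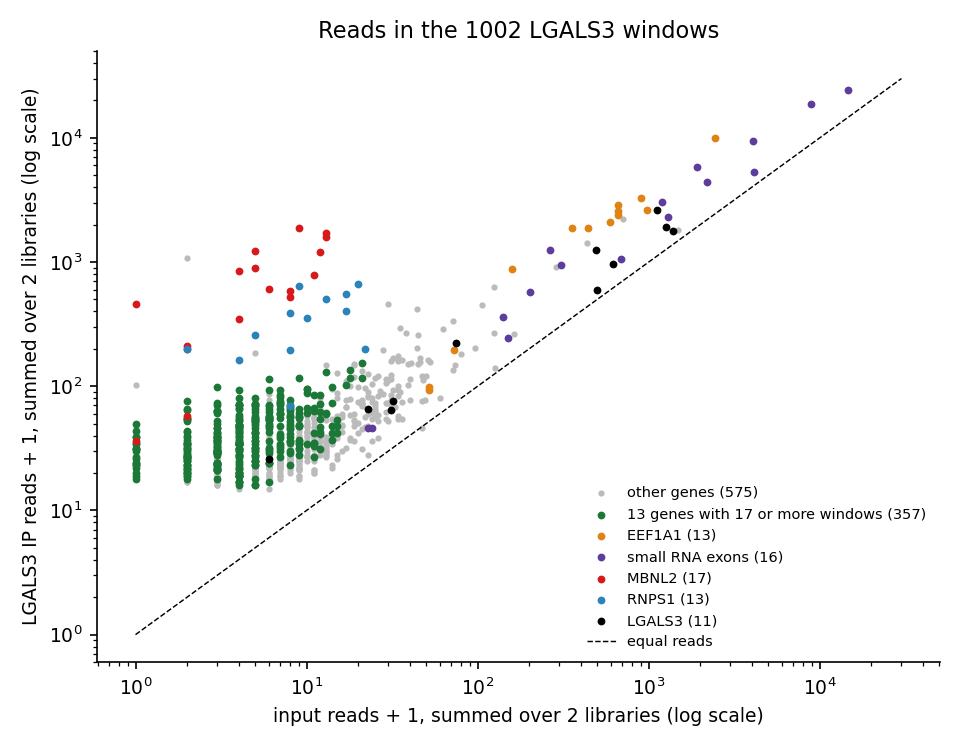
LGALS3 IP reads (vertical) against input reads (horizontal) in each of the 1002 windows, both summed over 2 libraries, with 1 added and on log scales. Most MBNL2 and RNPS1 windows stand above the rest with few input reads, whereas small RNA exons, EEF1A1 and most LGALS3 windows are high in both.

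The 3 genes MBNL2, RNPS1 and LGALS3, which encode proteins assayed in the series, held 41 windows (4.09%), 14.6% of the IP reads and 8.84% of the input reads. MBNL2 encodes a muscleblind splicing regulator and RNPS1 a splicing activator of the exon junction complex. MBNL2 had 17 windows with 13152 IP reads and 89 input reads, and the lower log2 odds ratio reached 8.99, the highest of the list. RNPS1 had 13 windows with 4580 IP reads and 130 input reads, and its lower log2 odds ratio ran between 2.39 and 6.95. Windows of both genes were mostly coding, 13 of 17 for MBNL2 and 8 of 13 for RNPS1.

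Each of these genes was read far more in the IP of its own protein. In the same 17 windows the MBNL2 IP held 637396 reads, and the LGALS3 IP had between 1.06% and 3.64% of that number per window. In the same 13 windows the RNPS1 IP held 534811 reads, and the LGALS3 IP had between 0.745% and 1.09% of that number. The profile along each gene was alike in both. On the log2 scale the LGALS3 IP reads correlated with the MBNL2 IP reads over the 17 MBNL2 windows (Pearson r = 0.93), and with the RNPS1 IP reads over the 13 RNPS1 windows (r = 0.98). Over the same 17 windows they correlated as much with the MBNL2 input (r = 0.95) and with the RNPS1 IP (r = 0.95), so the likeness was not particular to the MBNL2 IP. Over the 13 RNPS1 windows the correlation with the RNPS1 input was 0.89. With the MBNL2 IP it was lower, 0.54, over the 9 of these windows that were also in the MBNL2 list. Points of a gene share its exons, window lengths and base composition. The part that reads of those libraries have in the LGALS3 counts was not tested.

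LGALS3 itself had another pattern, with many reads in the input. Its 11 windows held 9601 IP reads and 5532 input reads, and the lower log2 odds ratio ran between 1.04 and 3.44. The coding window with most reads (chr14:55140275-55140363, plus strand, hg38) had 2634 IP and 1117 input reads. The start codon window had 1260 IP and 488 input reads, and the stop codon window 599 IP and 497 input reads. A further 4 windows lay in introns next to a 3' splice site, with 25 to 221 IP reads each. None of the 11 windows appeared in another list.

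The share of a list's reads that fell in its own gene can be set side by side, although the lists differ in length and depth. In the LGALS3 list the own gene took 5.13% of IP and 8.51% of input reads. In the MBNL2 list MBNL2 took 23.8% of IP and 24.4% of input reads, and in the RNPS1 list RNPS1 took 6.17% and 3.19%. The own gene took between 0.00182% (EIF4B) and 0.198% (RBM10) of IP reads in the CPSF5, CPSF6, EIF4B, GRB2 and RBM10 lists, where the gene of CPSF5 is NUDT21. RBM22 had no window in its own list. LGALS3, MBNL2 and RNPS1 were thus the 3 lists with a large share of reads in the own gene.

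EEF1A1 was the gene with most LGALS3 IP reads outside the 3 genes. It had 13 windows with 30732 IP reads and 8006 input reads, and 10 of them formed a stretch at the 5' end of the gene (chr6:73520301-73521287, minus strand, hg38) that took 16.2% of all IP reads of the list and 12.04% of its input reads. The stretch was chosen after its values were seen. Its strongest window by reads had 9876 IP and 2439 input reads, with a lower log2 odds ratio of 1.37. The 3 windows upstream of the RefSeq start, which cover the sequence given above, had 1883, 1868 and 870 IP reads, against 353, 443 and 157 input reads. All 10 windows carry exon and intron labels of different transcripts in the authors' annotation. The window that holds the first 92 nt of the RefSeq transcript was not listed for LGALS3.

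The same stretch was read at different levels in the other lists. Input reads per listed window ran between 157 and 2439 in the LGALS3 list, between 478 and 4173 in the MBNL2 list (8 windows) and between 346 and 930 in the RNPS1 list (5 windows). In the CPSF6 list 5 windows had between 0 and 230 input reads, and the 230 belonged to the first 92 nt. In the EIF4B list 2 windows had 5 and 147 input reads. The CPSF5, RBM10 and RBM22 lists had 1 window each, with 81, 6 and 15 input reads, and GRB2 had none. A limit of 157 input reads, the lowest LGALS3 value, was taken from these same values, with no adjustment for depth. The lists with at least that many in every listed window were those with a large share of reads in the own gene. What these 3 experiments share was not tested. The tables do not say whether the antibody went to a V5 tag on an introduced construct in any of them, and reads from such a construct and from the cell's own gene cannot be told apart in these counts.

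**Figure D2:**
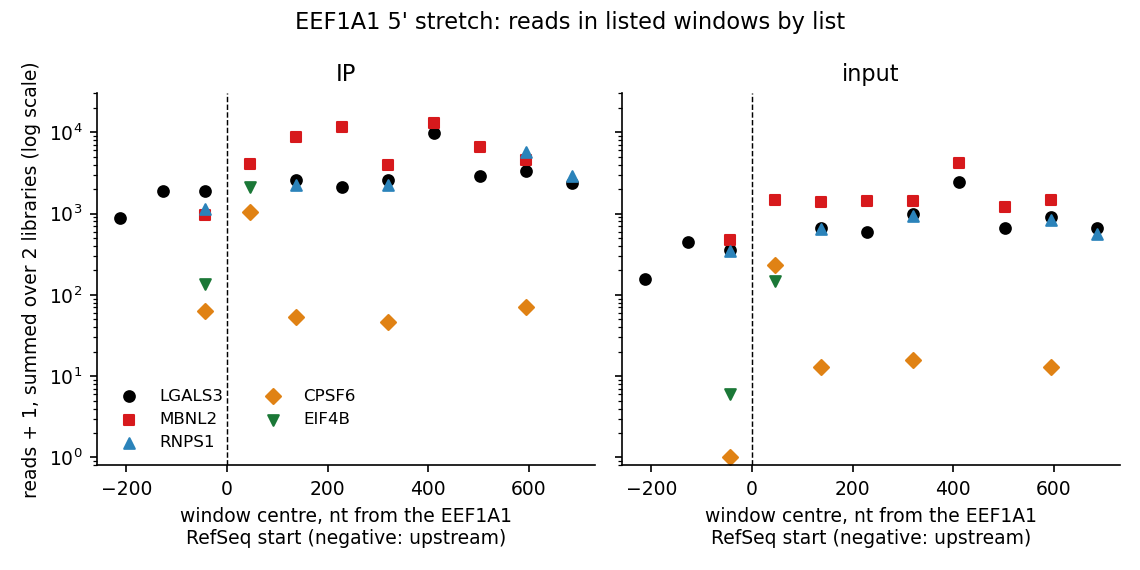
IP reads (left) and input reads (right) in listed windows of the EEF1A1 5' stretch, with 1 added and on a log scale, against the distance of the window centre from the RefSeq start. LGALS3, MBNL2 and RNPS1 have at least 157 input reads in every listed window, and CPSF6 lies lower away from the first 92 nt.

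Abundant small RNAs took most of the remaining reads. The 16 windows in small RNA exons were 1.60% of the list and held 41.8% of the IP and 61.4% of the input reads. SNORD3A, the U3 RNA that guides ribosomal RNA cleavage, had 24476 IP and 14513 input reads. The large mitochondrial ribosomal RNA gene MT-RNR2 had 18814 IP and 8867 input reads in 1 window, and the small one, MT-RNR1, had 9504 IP and 4049 input reads in the stronger of its windows. These windows were high in both IP and input, and the median lower log2 odds ratio of the 16 windows was 1.59, against 2.39 in the whole list.

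Among the small RNAs the strongest by odds ratio was RNY1, a Y RNA bound by the Ro protein, with 1258 IP and 265 input reads and a lower log2 odds ratio of 2.87. RNY3, another Y RNA, had 573 IP and 200 input reads and was in no other list. The vault RNA VTRNA1-1 had 358 IP and 140 input reads, and the U8 RNA gene SNORD118 had 5829 IP and 1922 input reads. The 10 windows with most IP reads took 46.7% of the list's IP reads, 54.7% outside the 3 genes and 29.8% where small RNA exons were left out. Copies of U3 (SNORD3A, SNORD3B-1, SNORD3C and SNORD3D) are nearly identical in sequence, so the split of reads between them is uncertain.

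Counted by windows, coding sequence was the leading class, with 602 of the 961 windows outside the 3 genes (62.6%, Wilson 95% interval 59.5 to 65.6). Then followed the 3' UTR with 115 windows (11.97%), the 5' UTR with 69 (7.18%), the stop codon with 47 (4.89%), the start codon with 35 (3.64%) and introns far from splice sites with 29 (3.02%). By IP reads the order was another one: small RNA exons held 48.96%, the 5' UTR 18.2% and coding sequence 15.5%. Of the 29079 IP reads in 5' UTR windows, 25724 lay in a run of 7 touching EEF1A1 windows. With each gene weighted equally, coding sequence was 45.3% and the 3' UTR 14.5%. Intervals cover counting error only, and neighbouring windows of a gene are not independent.

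**Figure D3:**
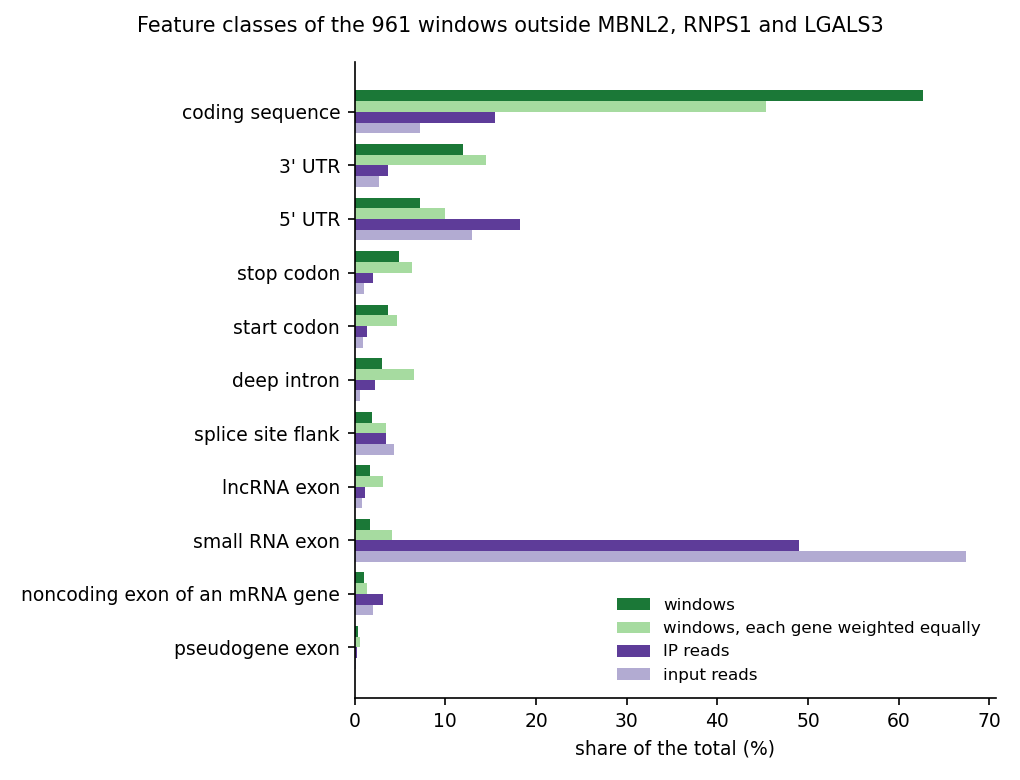
Share of each feature class among the 961 windows outside MBNL2, RNPS1 and LGALS3, by windows, by windows with each gene weighted equally, by IP reads and by input reads (percent of the total). Coding sequence leads by windows (62.6%), and small RNA exons lead by IP reads (48.96%).

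The coding windows were concentrated in few messages, and 13 genes with at least 17 windows held 357 of the 961 windows (37.1%). Among them were IQGAP1 with 46 windows, AMOT 35, CTNNB1 30, SPTAN1 and SPTBN1 27 each, ACTN4 and DBN1 25 each, MACF1 24, HUWE1 21, PRPF8 19, and DIAPH1 and PRRC2B 17 each. The limit of 17 was chosen after the counts were seen. In these genes 84.9% of windows were coding (Wilson 95% interval 80.8 to 88.2), against 49.5% (45.5 to 53.5) of the 604 windows of the other 353 genes. Their windows held 15210 IP and 1538 input reads, a ratio of 9.89, and the other genes 144533 IP and 57747 input reads, a ratio of 2.50. Without small RNA exons and EEF1A1 the ratio of the other genes was 3.64. The median lower log2 odds ratio was 2.81 in the 13 genes and 2.18 in the other genes. Of the 241 windows with a q-value no higher than 0.05, 140 lay in the 13 genes.

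Most of the 13 encode large proteins of the cell cortex and of cell contacts. IQGAP1, a scaffold for actin and its small GTPases, had 42 coding windows among its 46. Its IP reads per window were 20 at the lowest, 31 at the median and 72 at the highest, against 0, 2 and 7 input reads, a gap that the choice of enriched windows favours. Its lower log2 odds ratio ran between 2.15 and 5.25, and the strongest window (chr15:90484286-90484352, plus strand, hg38) had 62 IP and 2 input reads.

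CTNNB1 encodes beta-catenin, which links cadherins to actin and carries Wnt signals, and its 30 windows had 16 IP reads at the lowest, 50.5 at the median and 116 at the highest, against 1, 4 and 13 input reads. The stop codon window of CTNNB1 was the strongest of its class, with 65 IP and 1 input reads.

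AMOT, a junction scaffold that acts in the Hippo pathway, had the most IP reads of the 13 genes, 2046 against 279 input reads. Its lower log2 odds ratio ran between 1.61 and 3.53, with a maximum below those of IQGAP1 and CTNNB1. The spectrin genes SPTAN1 and SPTBN1, whose products form the membrane skeleton, had 801 and 1442 IP reads, against 86 and 89 input reads. SPTBN1 held the strongest coding window outside the 3 genes, at 29 IP and 0 input reads with a lower log2 odds ratio of 5.45. DBN1 (drebrin), ACTN4 (an alpha-actinin), MACF1 (a microtubule-actin crosslinker) and DIAPH1 (a formin) also encode actin regulators. DIAPH1 had 5 of its 17 windows in the 3' UTR, and its strongest coding window had 38 IP and 0 input reads.

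The other members of the group have other roles. HUWE1 encodes a ubiquitin ligase, and its 21 windows, all coding, held 575 IP and 103 input reads. PRPF8, the core protein of the spliceosome, had 19 coding windows with 566 IP and 128 input reads. PRRC2B had 8 windows in coding sequence and 8 in the 3' UTR, with 678 IP and 138 input reads. HUWE1 had 1 window whose q-value did not exceed 0.05, and PRPF8 and PRRC2B had none, against 28 in IQGAP1 and 23 in CTNNB1.

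**Figure D4:**
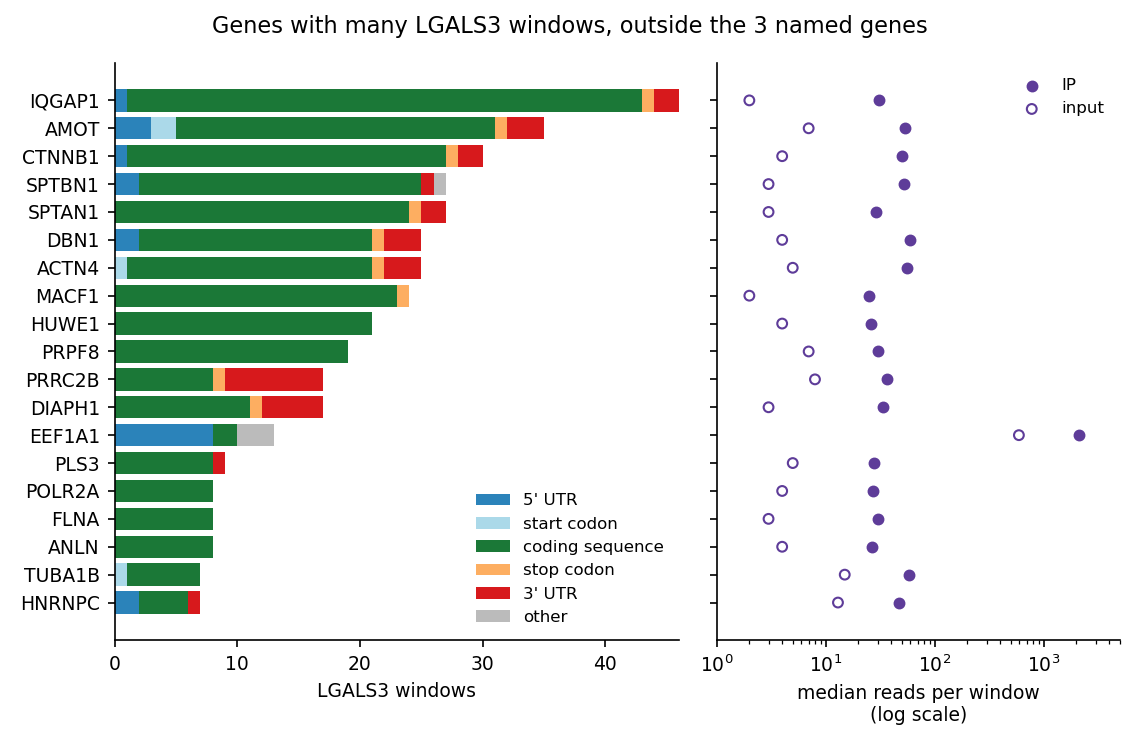
Genes with many LGALS3 windows outside MBNL2, RNPS1 and LGALS3: number of windows by feature class (left) and median IP and input reads per window (right, log scale). Coding windows make up most of the bars down to HUWE1 and PRPF8, and EEF1A1 stands apart with 2111 IP and 594 input reads at the median.

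The windows filled most of the listed coding places in some genes and few of them in others. Coding windows, start and stop codon windows included, were placed in transcript order among all coding windows of the gene in any of the 9 lists. CTNNB1 had 27 of 30 places, SPTBN1 23 of 26, AMOT 29 of 37, DBN1 20 of 26, ACTN4 22 of 32 and IQGAP1 43 of 63. The longest unbroken stretch was 16 places in SPTBN1 and 15 in CTNNB1. In CTNNB1 and SPTBN1 the LGALS3 windows filled nearly all of these places. The places count the LGALS3 windows themselves and need not cover the whole coding sequence. Their number differs between genes, with 26 in SPTBN1 and 87 in SPTAN1, and it sets how filled a gene appears.

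In other genes a smaller part of the places was filled, and in several the windows began late. SPTAN1 had 25 of 87 places and none among the first 22, HUWE1 21 of 154 and none among the first 28, PRRC2B 9 of 76 and none among the first 28, and DIAPH1 12 of 49 and none among the first 17. FLNA, the filamin A gene, had 8 of 66 places and none among the first 24. PRPF8 was the opposite case, with its first window at place 2 and none beyond place 63 of 84. MACF1 had 24 of 207 places, between place 12 and place 207. Places without a window were either not enriched or not covered, which cannot be told apart here.

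**Figure D5:**
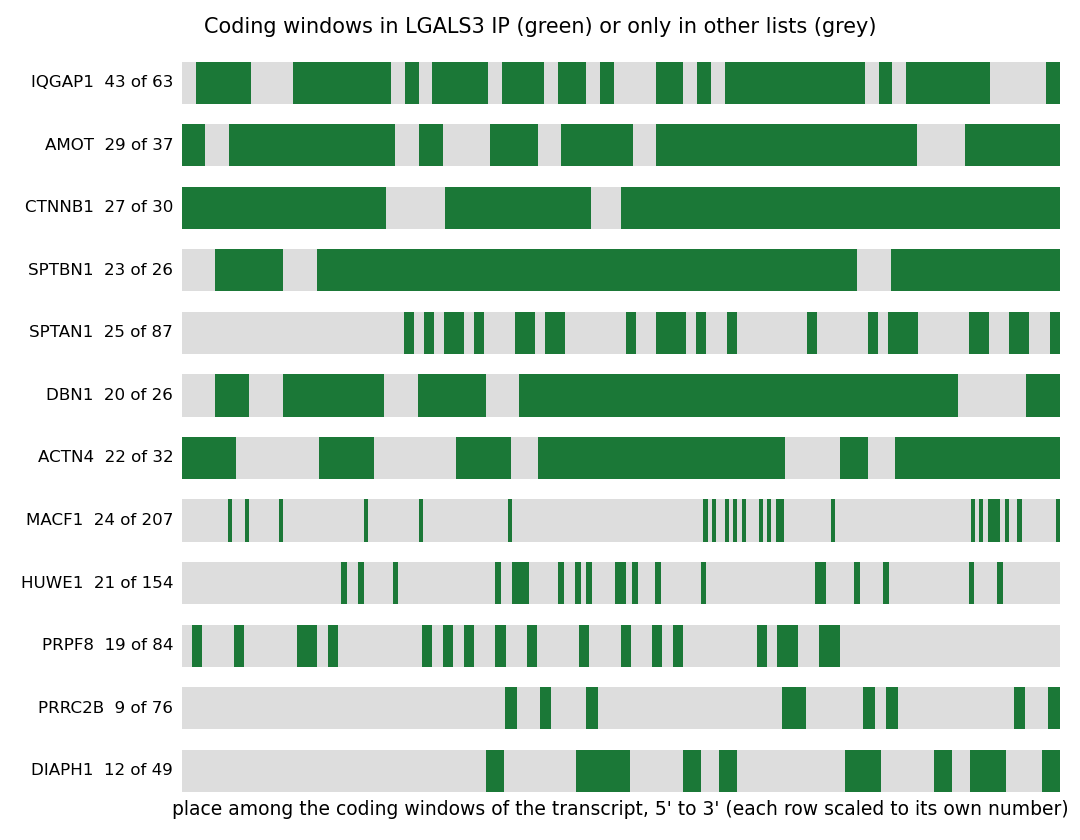
Coding windows of genes with at least 17 LGALS3 windows, in transcript order, each strip scaled to its own number of windows in any of the 9 lists. Green places are in the LGALS3 list and grey places are only in other lists. The strips of CTNNB1 and SPTBN1 are nearly filled, and SPTAN1, HUWE1, PRRC2B and DIAPH1 are empty at the 5' end.

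Gene lists of adhesion and cytoskeleton were drawn up with earlier results for IQGAP1, AMOT, CTNNB1, SPTAN1 and SPTBN1 known, so their counts are not independent evidence. The 6 lists held 174 genes, of which 31 had an LGALS3 window (17.8%, against 3.44% of all listed genes). The 174 include genes found in none of the 9 lists, which the 3.44% leaves out. Among genes listed for at least 5 other proteins the shares were 21.2% and 4.70%. The 350 windows of these genes were 36.4% of the LGALS3 windows outside the 3 genes and 57.3% of those with a q-value no higher than 0.05. In the other 8 lists the same genes held between 1.83% (RBM10) and 3.42% (CPSF6) of the windows.

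The counts were uneven between the lists. Of 41 genes for actin-binding proteins and myosins 13 had a window, with a median lower log2 odds ratio of 2.85 over 126 windows, against 2.38 over all 961 windows. Beside those named above, EZR (ezrin, which ties actin to the membrane) had 4 windows with 139 IP and 12 input reads, and ACTB (beta-actin) 5 windows with 582 IP and 192 input reads. Of 23 spectrin and ankyrin genes 4 had a window, and EPB41L2, which encodes a membrane skeleton protein, had 3 windows with 87 IP and 18 input reads. Of 21 cadherin and catenin genes only CTNNB1 and JUP (plakoglobin) did, of 28 genes for IQGAPs, small GTPases and their regulators only IQGAP1, DIAPH1 and RHOA, and of 27 Hippo genes only AMOT and NF2. Most pathway partners of the leading genes thus had no listed window.

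The tubulin and motor list, which is one of the 6 and counted in their totals above, had fewer windows per gene, as did the lists outside the 6. Their shares of genes with a window can be read against 3.44% of all listed genes and 4.70% of those in at least 5 other lists. Of 34 tubulin and motor genes 7 had a window, TUBA1B with 7 windows at 479 IP and 129 input reads. Of 26 hnRNP genes 9 had a window, HNRNPC with 7 windows at 331 IP and 112 input reads. Of 40 translation initiation factor genes 10 had one, EIF4A1 with 5 windows at 230 IP and 53 input reads, and of 24 chaperone genes 10 had one, none with more than 2 windows. The median lower log2 odds ratio was 1.99, 2.05, 2.13 and 2.06 in these 4 lists, below the 2.38 of all windows. Of 14 SR protein genes SRSF5 and TRA2B had 1 window each, and of 18 noncoding RNA genes NEAT1 and NORAD had 2 windows each.

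A few genes known as partners of galectin-3 itself were listed, 2 of 34 (5.88%) in the first list and 2 of 17 (11.8%) in the second. Of the members found in any of the 9 lists these were 7.69% and 12.5%, against 3.44% of all listed genes. Of 34 reported glycoprotein and cytosolic partners, BSG (basigin) had 1 window with 58 IP and 17 input reads, and TSG101, a component of the ESCRT machinery, had 1 window with 17 IP and 0 input reads. Of 17 reported nuclear partners, HNRNPL had 2 windows with 54 IP and 11 input reads and SFPQ 1 window with 50 IP and 19 input reads. Of 15 galectin genes only 2 were in any of the 9 lists, and only LGALS3, the gene of the assayed protein, had an LGALS3 window. These lists concern partners of the protein, and a window is a place in the partner's own message.

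Histone and ribosomal protein messages gave a further set of windows, which was picked out after the values were seen. Histone genes, most of whose messages end in a stem-loop in place of a poly(A) tail, held 62 windows in 31 genes, of which 21 lay in the 5' UTR, 9 at the start codon, 16 in coding sequence and 16 at the stop codon. They held 5318 IP and 1136 input reads, with a lower log2 odds ratio of 1.34 at the lowest, 1.99 at the median and 4.23 at the highest. The highest was the 5' UTR window of H2BC18, whose start is given above, with 47 IP and 4 input reads. H4C3 had 4 touching windows with 454 IP and 83 input reads. Of the 60 histone genes in any list, 31 had an LGALS3 window (51.7%, against 3.44% of all listed genes). Histone genes of a family are near copies, so the split of their reads is uncertain.

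Ribosomal protein genes held 38 windows in 26 of the 81 genes found in any list (32.1%, against 3.44% of all listed genes), with 2181 IP and 611 input reads and a median lower log2 odds ratio of 1.99. Of these windows 19 were coding, 9 in the 5' UTR, 4 at the start codon and 4 at the stop codon. The strongest, in the coding sequence of RPL23A, had 268 IP and 37 input reads and a lower log2 odds ratio of 3.13. RPL4 and RPL12, whose starts are given above, had 98 and 94 IP reads in the start window, against 19 and 13 input reads. Processed pseudogenes share sequence with many of these genes, and an RPL23A pseudogene, RPL23AP42, was itself listed.

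Outside the 3 genes, the 4 windows with the highest lower log2 odds ratio lay in introns, and none of them in the cytoskeletal genes. A window in an intron of BTBD2 (chr19:1998553-1998650, minus strand, hg38) had 1084 IP reads and 1 input read, with a lower log2 odds ratio of 7.82. An intron window of PTBP2, a neuronal splicing regulator, had 102 IP and 0 input reads. One of ITPR2, an intracellular calcium channel gene, had 45 IP and 0, one of TTC3, a ubiquitin ligase gene, 40 IP and 0, and one of PARN, a deadenylase gene, 43 IP and 2 input reads. All 5 were listed for the same 4 other proteins, CPSF5, GRB2, MBNL2 and RNPS1.

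The IP reads of these windows were higher in the CPSF5 and GRB2 lists. For BTBD2 they numbered 1084 in the LGALS3 list, 11356 in the CPSF5 list, 7879 in the GRB2 list, 428 in the MBNL2 list and 450 in the RNPS1 list, with at most 3 input reads in any of them. For PTBP2 they numbered 102 in the LGALS3 list, 618 in the CPSF5 list and 339 in the GRB2 list. In the same way a window of the kinase gene WNK1 had 184 IP and 4 input reads in the LGALS3 list, against 2185 IP and 14 input reads in the CPSF5 list. The depth of each library behind these sums is unknown.

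The 3' UTR windows were spread over 76 genes. NF2, which encodes the membrane-cytoskeleton linker merlin, had 7 windows, all in the 3' UTR (between chr22:29695002 and 29697998, plus strand, hg38), with 17 to 42 IP reads each, against 0 to 8 input reads. Their lower log2 odds ratios ran between 2.04 and 4.35. CBX6, a Polycomb protein gene, had 5 windows, all in the 3' UTR, with 182 IP and 43 input reads. IP6K1, an inositol phosphate kinase gene, held the strongest 3' UTR window, with 25 IP and 0 input reads, and it was in no other list.

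Most LGALS3 windows were also listed for another protein. Of the 1002 windows 936 (93.4%) were in at least 1 of the other 8 lists with the same start and end. RNPS1 shared 774 (77.2%, Wilson 95% interval 74.5 to 79.7), CPSF6 592 (59.1%), MBNL2 558 (55.7%), EIF4B 505 (50.4%) and CPSF5 329 (32.8%). RBM22 shared 87, RBM10 43 and GRB2 18. As shares of the longer lists these were 0.507% of the RNPS1, 0.381% of the CPSF6, 1.30% of the MBNL2, 0.735% of the EIF4B, 0.847% of the CPSF5, 1.00% of the RBM22, 0.151% of the RBM10 and 0.0062% of the GRB2 windows.

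Sharing followed the place in the message. Outside the 3 genes, 90.4% of coding windows were in the RNPS1 list and 20.8% in the CPSF5 list. Of the 3' UTR windows 32.2% were in the RNPS1 list and 72.2% in the CPSF5 list. Of the 5' UTR windows 88.4% were in the EIF4B list. These lists also differ in class, with 63.2% coding windows for RNPS1 and 6.07% for CPSF5, and the part of this difference in the sharing was not tested.

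Windows listed for no other protein numbered 66, or 55 in 28 genes outside the 3 genes, and 30 of the 55 were coding. Among these genes ACTN4, DAZAP1, EEF1A1, IQGAP1, NF2 and SPTBN1 had 2 such windows each. The 2 of IQGAP1 had 61 IP reads and 1 input read, and the 2 of NF2, both in the 3' UTR, had 61 IP and 8 input reads. In contrast 41 of the 46 IQGAP1 windows, 28 of the 30 CTNNB1 windows and all 19 PRPF8 windows were in the RNPS1 list.

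The GC content of the windows was 15.4% at the lowest, 50.6% at the median and 84.0% at the highest. Coding windows had a median of 50.8%, against 48.2% in the RNPS1 list, 45.95% in the CPSF6 list and 54.7% in the MBNL2 list. The 3' UTR windows had 45.8% and the 5' UTR windows 54.5%. Among the windows of highest GC were a 5' UTR window of DBN1 and a 5' splice site flank of DAZAP1, and 6 of the 8 windows of lowest GC lay in 3' UTRs, such as that of KHSRP, a regulator of message decay.

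GC content also entered the authors' enrichment value. In the 141 windows outside the 3 genes with at least 20 input reads, the log2 ratio of IP to input reads minus the authors' mean log2 odds ratio had a median of -1.49 in the lowest of the authors' GC classes (5 windows) and of 0.60 in the highest (15 windows). It climbed through the classes between. The same read ratio therefore stands for a higher deposited odds ratio in a GC-poor window than in a GC-rich one. Outside the 3 genes, 245 windows (25.5%) touched another listed window, in 105 runs of at most 7 windows, the longest in EEF1A1, DBN1 and AMOT.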

How the data were processed

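The authors deposited 1 table of enriched windows per protein. The IP and input read counts per window are whole numbers that the authors summed over 2 replicates. The log2 odds ratio (lower, mean and higher over replicates), the p-value and q-value and the GC fraction of each window are the authors' deposited values, used to describe, rank and filter. Coordinates are in hg38, per the submitters' processing notes. The aligner, the window caller, the annotation and the baseline of the odds ratio were not given in the sources used here. Coordinates were made 1-based. Ratios of single windows used 1 added to both counts. Windows were matched between lists by identical start, end and strand. Shares carry Wilson 95% intervals, and no test across libraries was possible. The functions were checked on made-up windows with known answers. Beside MBNL2, RNPS1 and LGALS3, the genes named were those with most windows or IP reads, the strongest and deepest windows, the strongest of each class, the extremes of GC, those in no other list, and members of 16 gene lists. Some named items are not reported here, although group counts include them. The members and lists were chosen with earlier results of these data known. Transcript starts and upstream sequence came from RefSeq (GRCh38.p14) and were matched by symbol, with starts on chromosome 8 left out; window sequences were not analysed here. Python 3.11.15, numpy 2.4.6, pandas 2.3.3, scipy 1.17.1 and matplotlib 3.10.9 were used.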

Additional observations from a re-analysis of the deposited data

How the results depend on the processing

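No paired analysis was possible because the deposited counts are summed over replicates, and for the same reason leaving out a replicate and a replicate block were not run. Of 29 alternative values, 11 moved by less than the interval or the limit set and 18 moved more. At a q-value of at most 0.05, 276 of 1002 windows and 94 of 369 genes were left. The top 10 windows then held 42.3% of IP reads in place of 46.7%, and the median GC was 49.3% in place of 50.6%. At this limit 86.6% of windows in place of 93.4% were in another list. Of the 174 adhesion and cytoskeleton genes, 9.20% in place of 17.8% had a window. The coding share of 62.6% became 25.2% by IP reads and 45.5% with genes weighted equally. The median of 5.40 IP reads per input read became 5.84 with 0.5 added, 3.64 with 5 added and 3.11 in windows with at least 10 input reads. Windows in joined runs were 28.3%, and 33.6% with gaps of up to 100 nt. Without MBNL2, RNPS1 and LGALS3 the top 10 windows held 54.7% of IP reads. Some settings were chosen after seeing the data. Without these 3 genes the coding share was 15.5% by IP reads. Without the 13 genes with most windows as well, it was 49.5% by windows and 8.17% by IP reads. The top 10 share was 29.8% without small RNA exons, and joined runs were 25.5% without the 3 genes. In genes outside the 13, summed IP reads per input read were 3.64 in place of 2.50 without small RNA exons and EEF1A1. The limits are few input reads per window, unknown depth and adjacent windows that are not independent.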
